A study of Homo sapiens with 6 samples.

Results

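The NF-kB family was examined in Huh7SR cells, a sorafenib-resistant pool raised from the human hepatocellular carcinoma line Huh7 by long exposure to sorafenib and called Huh7-R in the study's text. The set held the 5 subunit genes (NFKB1, REL and RELA of the canonical arm, NFKB2 and RELB of the non-canonical arm) and 5 genes that hold the pathway back or tune it (NFKBIA, NFKBIB, NFKBIE, TNFAIP3 and BCL3). All 10 were picked by gene symbol and all 10 were found among the 16305 genes measured. RNA-seq had been run on 3 samples given fostamatinib, an inhibitor of spleen tyrosine kinase, and 3 given DMSO, the solvent control. The labels state 2 µM and 24 h for both groups. The study did not detect the protein of that kinase in Huh7 cells, and it proposes that the drug acts through other targets. The cells of both groups carry the same resistance, and sorafenib had been withdrawn from the medium some days before the experiment. Treatments were applied in triplicate, but no source used here says whether the 3 samples came from separately grown cultures, so the p-values may reflect technical spread alone.

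NF-kB proteins are dimers of subunits that share a DNA-binding region, and they wait in the cytoplasm bound to inhibitors. In the canonical arm, a kinase complex marks the inhibitors for destruction and frees dimers such as RELA with the product of NFKB1. In the non-canonical arm, a separate kinase triggers cutting of the NFKB2 precursor, whose product then works with RELB. Several genes of the family are themselves targets of NF-kB, which forms feedback loops. In liver, the pathway is best known for driving inflammatory and survival genes.

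Each library held 13303451 to 15272737 reads on the genes listed, which limits the precision of weakly expressed genes. The hepatocyte markers fixed as a check on the cell type were present, 8 of 8. All 8 rose in the test used below, where 23.3% of all genes rose. Their summed level in CPM (reads scaled to library size) went from 4140 to 4410 under DMSO up to 5320 to 5660 under fostamatinib. Of the leukocyte markers, LYZ and CD14 were measured and summed to 9.83 to 11.2 CPM under DMSO and 9.67 to 11.7 CPM under the drug, while PTPRC and CD3E were not analysed here. Of the endothelial markers PECAM1 alone was measured, at 6.13 to 6.96 CPM against 8.76 to 9.93 CPM. Of the 4 fibroblast markers 3 were measured, and their summed level was 148 to 153 CPM against 191 to 198 CPM. The part of these shifts in the results that follow was not tested.

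The promoters of the family are shown first, because most of those analysed hold letters of the kind to which NF-kB itself binds. The windows come from RefSeq (250 bases before to 50 after a transcription start) and each was located by an exact match on GRCh37, the build to which the study's reads were mapped. Of the 10 genes, 8 had at least 1 window, 13 windows in all; those of NFKBIE and RELB were not analysed here. The 10-base kappa B consensus, searched on both strands, was found in 8 of the 13 windows and in 7 of the 8 genes (NFKB1, REL, NFKB2, NFKBIA, NFKBIB, TNFAIP3 and BCL3). Among all 35116 windows of the RefSeq table, 5.91% held it. Of the 27305 genes with a window, 7.09% held it in at least 1 window. Neither of the 2 windows of RELA held these letters. The stretches printed here are 30 bases long and read 5′ to 3′ on the strand of the gene, with the kappa B match in capitals; matches that overlap run together, and 2 further stretches of NFKB2 are left out. They are shown so that the changes of these genes can be read beside their own kappa B letters.
NFKB1 (chr4:103422457-103422486, + strand, match from -49): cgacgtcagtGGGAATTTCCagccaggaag
REL (chr2:61108653-61108682, + strand, matches from -47 and -46): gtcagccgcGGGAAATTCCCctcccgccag
NFKB2 (chr10:104154219-104154248, + strand, matches from -107 and -106): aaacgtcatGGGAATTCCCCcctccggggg
NFKB2 (chr10:104155431-104155460, + strand, another start, match from -21): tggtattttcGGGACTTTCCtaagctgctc
NFKBIA (chr14:35874017-35874046, - strand, match from -81): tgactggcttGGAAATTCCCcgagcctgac
NFKBIB (chr19:39390572-39390601, + strand, matches from -28 and -27): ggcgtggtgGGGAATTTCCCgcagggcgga
TNFAIP3 (chr6:138188325-138188354, + strand, matches from -67 and -55): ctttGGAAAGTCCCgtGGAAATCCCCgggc
BCL3 (chr19:45251957-45251986, + strand, match from 2): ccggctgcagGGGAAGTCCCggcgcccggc
Positions are counted from the RefSeq start of each window. By the GENCODE annotation, the printed stretches of NFKB1 and NFKBIA lie outside exons, those of REL, BCL3 and the upper one of NFKB2 lie wholly in exons, and the others cross an exon boundary. A match is a description of letters, and binding was not measured in these cells. Whether the matches bear on the changes of these genes was not tested.

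After fostamatinib, 5 of the 10 genes passed the test, against 47.8% of all 16305 genes (adjusted p under 0.05, limma with Benjamini-Hochberg adjustment). NFKB2 and REL rose, where 23.3% of all genes rose, and NFKB1, NFKBIA and TNFAIP3 fell, where 24.5% of all genes fell. The share called is near that of all genes. The log2 fold changes of the members ran from -0.84 for TNFAIP3 to 0.64 for NFKB2, with a median of -0.11 against 0.002 over all genes. Ranked by size among all genes, the change of TNFAIP3 stood at percentile 87.8, that of NFKB2 at 80.8, that of NFKB1 at 68.1 and that of RELB at 1.3. In 7 of the 10 genes all 3 samples of one group lay beyond all 3 of the other, against 54.1% of all genes. Each sample was RNA of many cells together, so a smaller share of cells with a transcript and less of it per cell cannot be told apart.

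**Figure D1:**
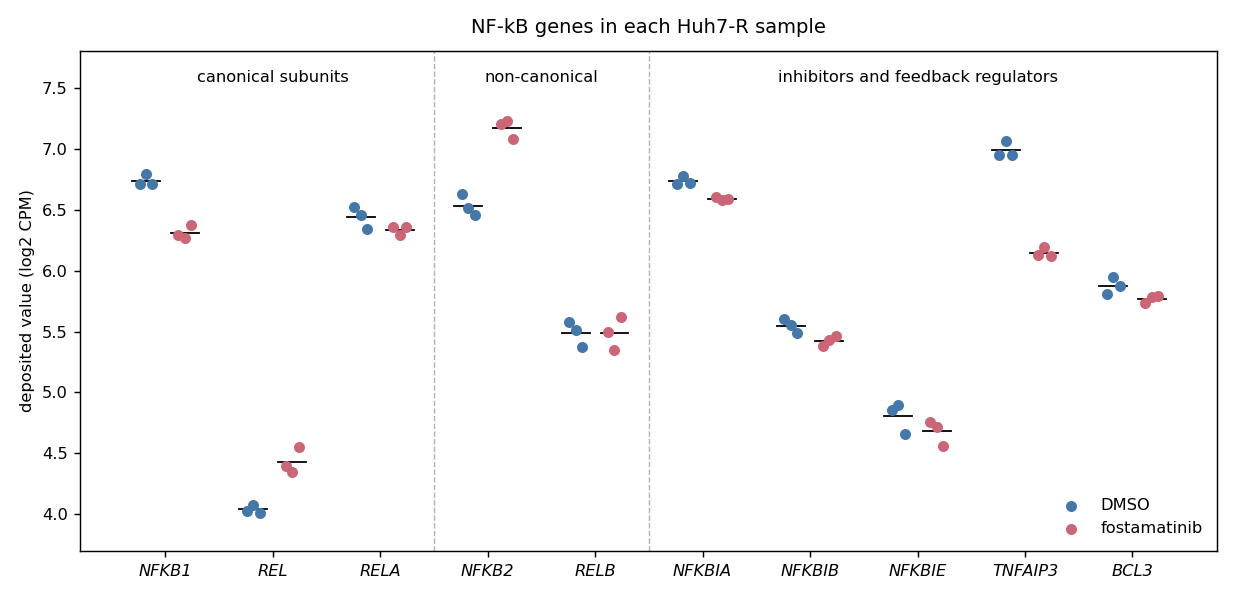
The deposited log2 CPM (y axis) of each NF-kB gene (x axis) is drawn for the 3 DMSO samples (blue) and the 3 fostamatinib samples (red), with a black line at each group mean. NFKB2 and REL sit higher after fostamatinib, NFKB1 and TNFAIP3 sit lower, and the points of RELA, RELB and NFKBIE overlap.

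Of the canonical subunits, NFKB1 fell, REL rose and RELA did not pass the test. NFKB1 (ENSG00000109320; chr4:103422487-103538459, + strand), which encodes a precursor cut to the DNA-binding partner of RELA, stood at 6.71, 6.79 and 6.71 log2 CPM with DMSO and at 6.29, 6.27 and 6.37 with fostamatinib. Every treated sample lay below every control. The fall was to 74.3% of the DMSO level (log2 fold change -0.43, standard error 0.049, adjusted p = 3.44e-09 from limma).

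RELA (ENSG00000173039; chr11:65421070-65430561, - strand) encodes the main activating subunit of the canonical arm. Its values were 6.52, 6.46 and 6.34 log2 CPM with DMSO and 6.36, 6.29 and 6.36 with fostamatinib, and the groups overlap. The log2 fold change was -0.10 with a 95% interval of -0.21 to 0.01 (adjusted p = 0.117, limma), so a fall of more than 0.21 on the log2 scale lies outside the interval. This reading depends on DMSO replicate 3, without which RELA had a log2 fold change of -0.15 and an adjusted p of 1.22e-02 in limma's test.

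REL (ENSG00000162924; chr2:61108626-61158747, + strand), the subunit best known from lymphocytes, had 225 to 309 reads per sample and was the least abundant of the family by reads. It measured 4.03, 4.08 and 4.01 log2 CPM with DMSO and 4.40, 4.35 and 4.55 with fostamatinib, with no overlap. It rose 1.31-fold (log2 fold change 0.39, standard error 0.084, adjusted p = 2.18e-04, limma). Of the exon bases of REL, 5702 are shared with a long non-coding gene annotated on the same strand (ENSG00000267520), which was not analysed here.

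Of the non-canonical subunits, NFKB2 rose and RELB did not pass the test. NFKB2 (ENSG00000077150; chr10:104153867-104162281, + strand) encodes the precursor that the non-canonical arm cuts. It was measured at 6.63, 6.51 and 6.46 log2 CPM with DMSO and at 7.20, 7.23 and 7.08 with fostamatinib, a gap with no overlap. The rise was 1.56-fold (log2 fold change 0.64, standard error 0.050, adjusted p = 4.09e-13, limma) and was the largest among the 10 genes. When each sample was left out in turn, the log2 fold change of NFKB2 lay between 0.60 and 0.68.

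RELB (ENSG00000104856; chr19:45504719-45541450, + strand), the partner of the NFKB2 product, stood at 5.58, 5.51 and 5.37 log2 CPM with DMSO and at 5.50, 5.35 and 5.62 with fostamatinib. The groups overlap over most of their range. Its log2 fold change was 0.0063 on the deposited values and -0.0047 when the libraries were scaled by their size alone, with a 95% interval of -0.13 to 0.14 (adjusted p = 0.948, limma). A change beyond 0.14 on the log2 scale in either direction thus lies outside the interval, and the sign moved with the sample left out (-0.06 to 0.08).

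**Figure D2:**
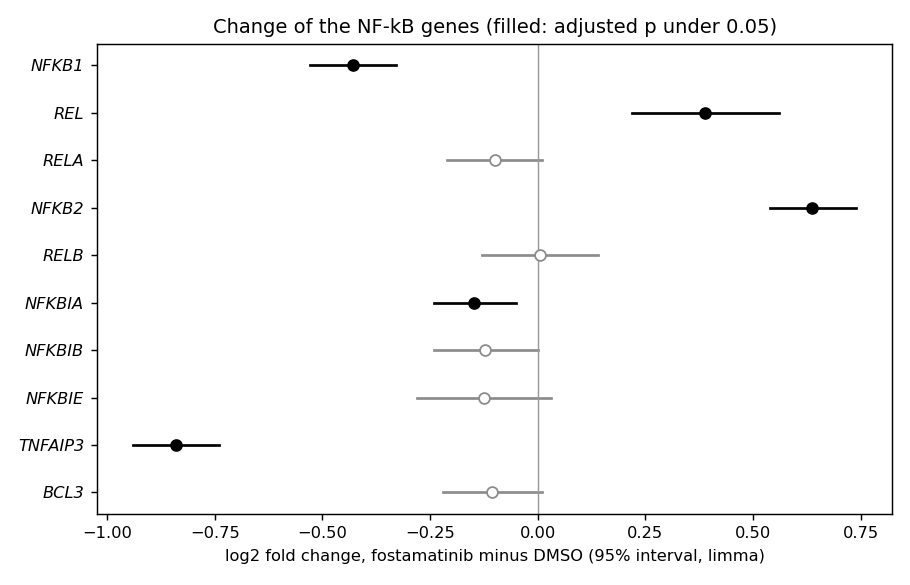
The log2 fold change of each NF-kB gene after fostamatinib (x axis) is drawn as a point with its 95% interval from limma; filled points have an adjusted p under 0.05. The intervals of NFKB2 and REL lie above 0, those of NFKB1, NFKBIA and TNFAIP3 below it, and that of RELB spans it from -0.13 to 0.14.

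To compare the arms directly, the log2 ratio of each non-canonical subunit to each canonical one was taken within each sample, which removes the scaling of the library. The ratio of NFKB2 to NFKB1 was -0.08, -0.29 and -0.25 with DMSO and 0.91, 0.96 and 0.71 with fostamatinib. It was thus negative in every control and positive in every treated sample. The difference was 1.07 on the log2 scale (standard error 0.098, 95% interval 0.79 to 1.34), a 2.09-fold shift towards NFKB2. These ratios are not per length, so their sign does not give the order of the 2 genes. Per kilobase of canonical transcript, NFKB2 stood above NFKB1 in the controls too. The CPM per kilobase there was 32.8, 30.2 and 29.2 for NFKB2 against 25.8, 27.4 and 25.9 for NFKB1.

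Against RELA, NFKB2 stood at 0.11, 0.05 and 0.13 in the controls and at 0.83, 0.94 and 0.72 after treatment, a difference of 0.74 (95% interval 0.54 to 0.93) with no overlap. Against REL, which itself rose, the ratio of NFKB2 was 2.59, 2.43 and 2.45 in the controls and 2.80, 2.88 and 2.53 after treatment. There the groups overlap, and the interval of the difference, -0.08 to 0.58, includes 0.

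RELB gained on NFKB1 by 0.44 (95% interval 0.21 to 0.66) and lost on REL by a difference of -0.38 (95% interval -0.56 to -0.21), both with no overlap. Against RELA its difference was 0.11 (95% interval -0.05 to 0.26). The highest control and the lowest treated value both round to -0.94, and before rounding the groups do not overlap. An exact two-sided permutation test over the samples gave p = 0.10 for 5 of these 6 ratios, the smallest that 3 samples against 3 allow, and p = 0.20 for NFKB2 over REL; the adjusted values over the 6 were 0.12 and 0.20. The arms therefore did not part as blocks, since 1 subunit of each arm rose and the other subunits did not.

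**Figure D3:**
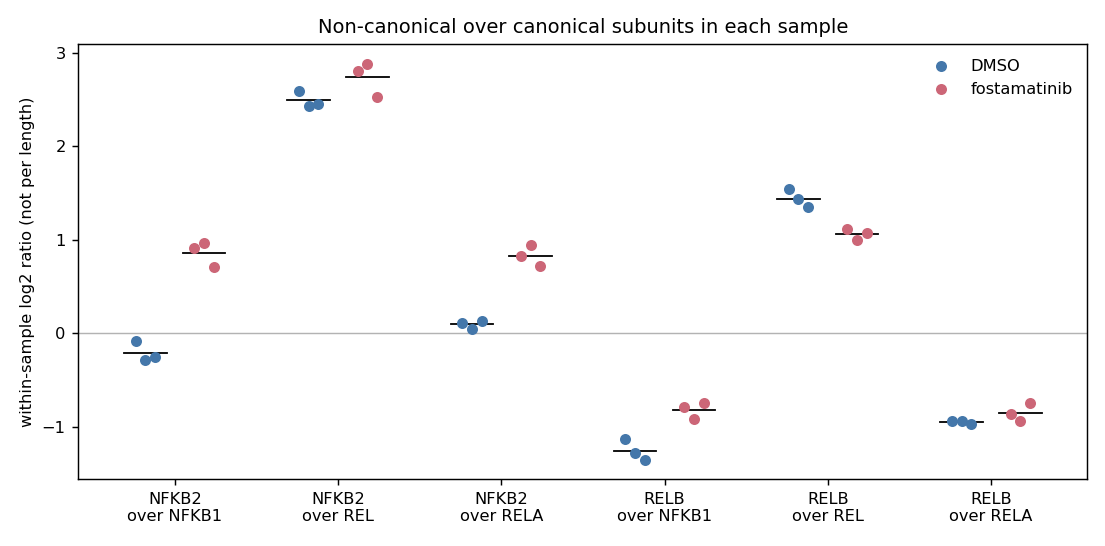
The within-sample log2 ratio (y axis) of NFKB2 and of RELB to each canonical subunit (x axis) is drawn for the 3 DMSO samples (blue) and the 3 fostamatinib samples (red), with a line at each mean; ratios are of log2 CPM and not per length. NFKB2 over NFKB1 moves from a mean of -0.21 to a mean of 0.86, while NFKB2 over REL overlaps between the groups.

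Levels of different genes were compared per length, as RPKM, the CPM divided by the length of the canonical transcript in kilobases. In the DMSO samples the order of the subunits was RELA at 34.5 ± 2.20 RPKM (SD, n = 3), NFKB2 at 30.7 ± 1.82, NFKB1 at 26.3 ± 0.899, RELB at 19.9 ± 1.47 and REL at 1.48 ± 0.0381. The sample ranges of RELA and NFKB2 overlap there, and the other neighbours are apart. After fostamatinib NFKB2 came first at 47.8 ± 2.60 RPKM (SD, n = 3), followed by RELA at 32.1 ± 0.944, RELB at 20.0 ± 1.84, NFKB1 at 19.5 ± 0.694 and REL at 1.94 ± 0.140. In that order RELB and NFKB1 overlap.

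Of the summed RPKM of the 5 subunits, NFKB2 and RELB together made up 45.8%, 44.1% and 44.4% with DMSO and 56.1%, 56.7% and 54.7% with fostamatinib, with NFKB2 alone going from 26.4% to 27.9% up to 36.9% to 41.6%. RELB alone held 17.1% to 18.0% and 15.1% to 17.9%, and the share of NFKB1 went from 21.9% to 24.2% down to 15.7% to 16.7%. With the length of all annotated exons in place of the canonical transcript, a choice made after seeing the data, the joint share of NFKB2 and RELB was 56.6% to 57.9% and 65.2% to 66.5%. The rise of that share is seen with both lengths, but the order of the subunits depends on the length used. On all exons NFKB2 came first in both groups, at 16.6 ± 0.984 RPKM (SD, n = 3) with DMSO, where its samples overlap those of RELA at 15.9 ± 1.02, and at 25.8 ± 1.41 with fostamatinib. On that length RELB overlaps RELA in both groups. With DMSO, RELB stood at 15.0 ± 1.11 RPKM (SD, n = 3), and its highest sample, at 15.9, also passed the lowest of NFKB2, at 15.8. After fostamatinib RELB stood at 15.0 ± 1.38 RPKM (SD, n = 3) against RELA at 14.8 ± 0.435. NFKB1, at 6.81 ± 0.233 with DMSO, lies below RELB in both groups.

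**Figure D4:**
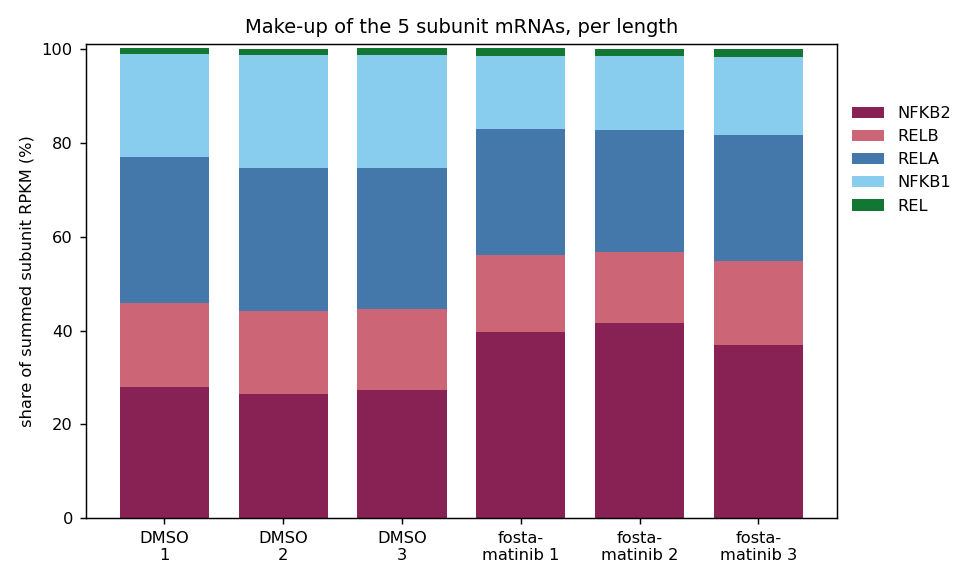
Each bar is a sample (x axis) and its segments are the shares of the 5 subunits in their summed RPKM (y axis, percent, canonical transcript length). The joint share of NFKB2 and RELB lies between 44.1% and 45.8% in the DMSO samples and between 54.7% and 56.7% in the fostamatinib samples.

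Of the 5 inhibitors and feedback regulators, TNFAIP3 and NFKBIA fell, and the other 3 had log2 fold changes below 0 that did not pass the test. TNFAIP3 (ENSG00000118503; chr6:138188351-138204451, + strand) encodes A20, an enzyme that edits ubiquitin chains and shuts off canonical signalling. It measured 6.95, 7.06 and 6.95 log2 CPM with DMSO and 6.13, 6.19 and 6.12 with fostamatinib. The groups are far apart, with 923 to 1039 reads in the treated samples against 1701 to 2040. It fell to 55.9% of the DMSO level (log2 fold change -0.84, standard error 0.049, adjusted p = 1.48e-16, limma), the largest change of the 10 genes. The antisense non-coding gene WAKMAR2 shares 95 exon bases with TNFAIP3 and had a mean of 6.5 reads per sample.

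NFKBIA (ENSG00000100906; chr14:35870285-35873955, - strand) encodes the inhibitor that canonical signalling destroys and then makes anew. Its values were 6.71, 6.78 and 6.72 log2 CPM with DMSO and 6.60, 6.58 and 6.59 with fostamatinib, with a treated range narrower than that of the controls and no overlap. The fall was small, to 90.2% of the DMSO level (log2 fold change -0.15, standard error 0.046, adjusted p = 7.87e-03, limma). Per length it was the most abundant of the 10 genes in both groups, at 68.5 ± 1.78 RPKM (SD, n = 3) with DMSO and 61.8 ± 0.596 after fostamatinib.

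NFKBIB (ENSG00000104825; chr19:39390340-39399533, + strand), a slower inhibitor, stood at 5.60, 5.55 and 5.49 log2 CPM with DMSO and at 5.38, 5.43 and 5.46 with fostamatinib. The groups do not overlap (exact permutation p = 0.10, the smallest that 3 samples against 3 allow). NFKB1, REL, NFKB2, NFKBIA and TNFAIP3, which limma called, had the same exact p. For NFKBIB the log2 fold change of -0.12 had an adjusted p of 0.0911 in limma's test. The opposite-strand gene SIRT2 shares 40 exon bases with NFKBIB, and whether reads were counted by strand is not given in the sources used here.

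NFKBIE (ENSG00000146232; chr6:44225903-44233525, - strand), another inhibitor of that kind and the least abundant of them, measured 4.86, 4.90 and 4.66 log2 CPM with DMSO and 4.76, 4.72 and 4.56 with fostamatinib. The groups overlap, and the log2 fold change of -0.12 (95% interval -0.28 to 0.03) had an adjusted p of 0.192 from limma. BCL3 (ENSG00000069399; chr19:45250962-45263301, + strand), an inhibitor relative that works in the nucleus on dimers of the NFKB1 and NFKB2 products, stood at 5.81, 5.95 and 5.87 log2 CPM with DMSO and at 5.73, 5.78 and 5.79 with fostamatinib. The groups just miss each other, and the log2 fold change was -0.10 (95% interval -0.22 to 0.01, adjusted p = 0.124, limma).

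A single control sample decides some of these calls. Without DMSO replicate 3, NFKBIB had a log2 fold change of -0.15 (adjusted p = 3.86e-02, limma) and NFKBIE one of -0.20 (adjusted p = 3.47e-02, limma), so that 6 members fell in place of 3. The 5 members called on all samples were called in each of the 6 fits that left out 1 sample. The adjusted p-values above also lean on the mean-variance trend that limma shares between genes; without it they were 2.22e-03 for NFKB2, 8.69e-03 for REL, 3.00e-03 for NFKB1, 4.98e-04 for TNFAIP3 and 0.0432 for NFKBIA.

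Beyond the family, 5 lists, chosen with earlier results of these data known, covered the rest of the pathway. The receptors and ligands that feed the canonical arm had 12 of 18 listed genes measured, of which 8 fell and 1 rose (24.5% and 23.3% of all genes), with a median log2 fold change of -0.62 against 0.002 over all genes. IL1RAP, the shared chain of the interleukin-1 receptor, fell from a mean of 1814.7 to 753.7 reads (log2 fold change -1.18, adjusted p = 1.72e-20, limma). IL1R1, the ligand-binding chain, fell from 1053.0 to 604.7 reads (-0.71 on the log2 scale, adjusted p = 5.35e-13, limma). The cytokine gene IL18 fell by 1.06 on the log2 scale. IL17RC, a chain of the interleukin-17 receptor, was the gene of the list that rose, by a log2 fold change of 0.65 (adjusted p = 2.89e-08, limma). IL1B, named after its values were seen, had 41, 43 and 44 reads with DMSO and 10, 2 and 9 with fostamatinib. TNF, LTA, TNFRSF1B, IL1RN, TLR1 and TLR4 were not analysed here. Among genes with at least 10 reads in every sample, 5 of the list fell and the median was -0.33.

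The kinases and adaptors that pass the signal on were mixed. All 21 listed genes were measured, 7 rose, 7 fell and 7 did not pass the test (23.3% of all genes rose and 24.5% fell), with a median log2 fold change of 0.04. With 1 sample left out, 5 to 7 of the list rose and 5 to 7 fell. Of the core kinase complex, CHUK, the kinase shared by both arms, fell by 0.24 on the log2 scale (adjusted p = 1.77e-03, limma), and IKBKG, its regulatory subunit, fell by 0.28 (adjusted p = 8.01e-03, limma). IKBKB, the main canonical kinase, had a log2 fold change of -0.05 (adjusted p = 0.515, limma). TAB3, an adaptor of the upstream kinase, rose most, from 1186, 1302 and 1307 reads to 1847, 1969 and 1904, a log2 fold change of 0.68 (adjusted p = 8.50e-15, limma). SHARPIN rose by 0.42 and RBCK1 fell by 0.33 on the log2 scale, and both encode parts of the complex that builds linear ubiquitin chains. TRAF6 rose by 0.35 and the kinase gene IKBKE fell by 0.39 on the log2 scale. Reads of IKBKG may be shared with its near-identical pseudogene copy, so its value is uncertain.

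In the non-canonical arm, 10 of 14 listed genes were measured, of which 1 rose and 4 fell, with a median log2 fold change of -0.06. The 5 called of 10 are near the 47.8% of all genes called. TNFRSF12A, a receptor of this arm, fell most, from 1643, 1773 and 1578 reads to 696, 751 and 692 (log2 fold change -1.13, adjusted p = 2.73e-19, limma). BIRC3, which helps to destroy the kinase of the arm, fell by 0.29 on the log2 scale, and LTBR, a receptor, by 0.13. The fourth gene that fell was LTB, named after its values were seen, with a mean of 31.7 against 17.0 reads (log2 fold change -0.83, adjusted p = 1.23e-02, limma). Its call was lost without DMSO replicate 1 (-0.75) or fostamatinib replicate 2 (-0.58), and in each of those fits 2 genes of the arm fell in place of 4. MAP3K14, the kinase that triggers cutting of the NFKB2 precursor, rose from a mean of 102.7 to 123.3 reads (log2 fold change 0.36, standard error 0.139, adjusted p = 0.0292, limma), with overlapping groups. The call of MAP3K14 was lost in 3 of the 6 fits that left out 1 sample, without DMSO replicate 2 (0.19), fostamatinib replicate 2 (0.34) or fostamatinib replicate 3 (0.33), and that of LTBR was also lost in 3 of 6, without DMSO replicate 1 (-0.12), DMSO replicate 2 (-0.11) or fostamatinib replicate 2 (-0.11). TRAF3, which holds the kinase down, had a log2 fold change of -0.05 (adjusted p = 0.547, limma), and it was 0.02 without fostamatinib replicate 2. TNFRSF11A, TNFRSF13C, TNFSF12 and TNFSF13B were not analysed here.

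Of 17 further inhibitors, all measured, 6 fell, 3 rose and 8 did not pass the test, which is near the 47.8% of all genes called. TNIP3, which binds A20, fell most, from 306, 315 and 342 reads to 90, 124 and 114 (log2 fold change -1.47, adjusted p = 6.02e-14, limma). NFKBIZ, a nuclear relative of the inhibitors and a known NF-kB target, fell from 2279, 2412 and 2414 reads to 1291, 1317 and 1308 (log2 fold change -0.77, adjusted p = 1.69e-16, limma), a change close in size to that of TNFAIP3. ZC3H12A, which degrades inflammatory mRNAs, fell by 0.49 on the log2 scale. PDLIM2, which targets RELA for destruction, rose by 0.53, TAX1BP1, a partner of A20, by 0.18 and N4BP1 by 0.13. TNIP1 fell by 0.10 (adjusted p = 0.0436, limma), but its call was lost without DMSO replicate 2 or any 1 of the fostamatinib samples, 4 of the 6 fits that left out 1 sample, and that of N4BP1 in 5 of 6, all but the fit without DMSO replicate 2. Over the 6 fits TNIP1 lay between -0.13 and -0.07 and N4BP1 between 0.11 and 0.15. CYLD, an enzyme that removes ubiquitin chains, had a log2 fold change of 0.16 (adjusted p = 0.0792, limma), and one of 0.22 (adjusted p = 1.87e-02, limma) without DMSO replicate 3.

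Of the 29 target genes listed, 26 were measured, 20 fell and 1 rose (24.5% and 23.3% of all genes), with a median log2 fold change of -1.43 against 0.002 over all genes. Among those with a mean of at least 50 reads in either group, CXCL8 fell most, with a log2 fold change of -2.62, followed by CCL20 with -1.80, both chemokine genes, and IER3, an early-response survival gene, with -1.78. GADD45B, a stress gene, was the gene that rose, by 0.33. The median of the targets thus lay further below 0 than the log2 fold change of any of the 10 family members, the lowest of which was -0.84 for TNFAIP3. Both the targets and the members were chosen with earlier results of these data known, so this contrast is a description. Close paralogs on the list (SAA1 with SAA2, and CXCL1, CXCL2 and CXCL3) may share reads, so the count of targets is uncertain by those genes. VCAM1, CCL2 and MMP9 were not analysed here. Some targets were kept in the data through reads in the DMSO group alone. With at least 5 reads in 2 of 3 samples of both groups, 18 of the list fell and the median was -1.39. Among genes with at least 10 reads in every sample, 17 of the list fell and the median was -1.33.

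**Figure D5:**
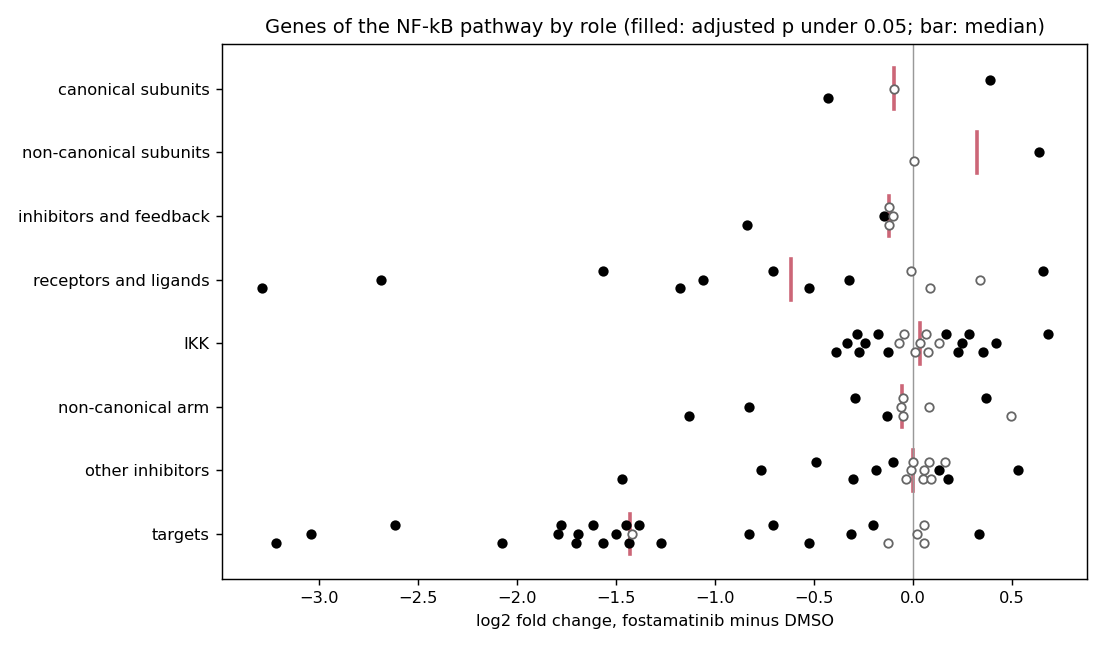
Each point is a measured gene of a list (y axis) at its log2 fold change after fostamatinib (x axis); filled points have an adjusted p under 0.05, and the red bar is the median of the list. The targets have a median of -1.43 and the receptors and ligands one of -0.62, while the medians of the kinases and adaptors (IKK, 0.04) and of the non-canonical arm (-0.06) lie near 0.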

How the data were processed

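RNA-seq was run on 3 DMSO-treated and 3 fostamatinib-treated samples of Huh7-R cells. Reads were mapped by the authors to hg19 with HISAT and counted with featureCounts on GENCODE 22, genes were removed where 2 or 3 samples of each group had under 5 reads, and TMM normalization was applied; tool versions are not given in the sources used here. The deposited values are log2 CPM with 0.5 added to each count. A gene listed repeatedly (6 extra rows) was used once. Reads were recovered from the values (all within 0.05 of a whole number), for depth, levels per length and other scalings. Linear models were fitted with limma 3.58.1 (R 4.3.3; mean-variance trend, treatment as the single term) over 16305 genes, with Benjamini-Hochberg adjustment and a threshold of 0.05; the script was tested on simulated data. Because 0.5 is added to each count, changes of genes with few reads are understated. Sharing the spread between genes raised the degrees of freedom from 4 to a median of 33.9. Gene positions and lengths are from GENCODE 44 mapped to GRCh37; promoter windows are from RefSeq (GRCh38.p14), located on GRCh37 by exact match. Intervals of ratios used the pooled SD on 4 degrees of freedom. Samples were grouped by their titles. Named genes were all members, 8 fixed pathway genes and, in each list, up to 3 with the largest rise and 3 with the largest fall among those called whose higher group mean was 50 reads or above; any other gene is said to have been named after its values were seen. The members and lists were chosen with earlier results of these data known. Alternatives tried were limma-voom, no trend, median-ratio factors, library size alone, a pseudocount of 2, stricter filters, the replicate number as a block and the omission of each sample. Figures were drawn with matplotlib 3.10.9.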

Additional observations from a re-analysis of the deposited data

How the results depend on the processing

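The 5 family members called on all samples kept their direction and their call under limma-voom, no trend, median-ratio factors, library size alone, a pseudocount of 2, both stricter filters and each omission of a sample. With 1 sample left out, 3 to 6 members were called lower. Log2 fold changes then lay between -0.15 and -0.06 for RELA, -0.15 and -0.09 for NFKBIB, -0.20 and -0.06 for NFKBIE, -0.06 and 0.08 for RELB and -0.09 and 0.02 for TRAF3. The calls that members gained arose without DMSO replicate 3, and the cause was not tested. With library size alone RELB stood at -0.0047. Without the trend MAP3K14 and LTBR lost their calls, as did N4BP1, TNIP1, RNF11 and NKIRAS1, the last pair named after their values were seen. In that fit 0 genes of the non-canonical arm rose and 3 of the further inhibitors fell. BTRC, FBXW11 and TRADD, named after their values were seen, also lost their calls there, so that 5 kinases and adaptors rose and 6 fell. BCL2A1, named likewise, gained a call there and under limma-voom, so that 21 targets fell in each. It also gained a call without fostamatinib replicate 2, as IRAK4, named likewise, did without DMSO replicate 1. TNIP1 also lost its call with median-ratio factors and N4BP1 with library size alone. With at least 10 reads in every sample the median of the targets was -1.33. The count of genes called was 7794, and 6382 to 7977 under the alternatives. With the replicate block it was 7977, and N4BP1 alone among the named genes lost its call. Deviations of same-numbered samples correlated at -0.021 to 0.037, and not every sample correlated best with its own number. With 3 samples a group, these correlations cannot show whether same-numbered samples were handled in pairs. The joint share of NFKB2 and RELB rose by 11.1 percentage points on canonical transcripts and by 8.80 on all exons. With few reads, MAP3K14 and LTB had standard errors of 0.139 and 0.274, against 0.050 for NFKB2.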
